A study of Etroplus suratensis with 2 samples.

Results

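In 6 small groups of assembled contigs from the cichlid fish *Etroplus suratensis*, 1 contig had at least 16 times its female level in a male pool of organ RNA, and another had at least 16 times its male level in a female pool. These 6 groups held 12 such contigs, 6 in each direction, of 96646 contigs in the table. A group here is a Trinity component, which is the set of contigs whose names agree up to the last field. The members were chosen by their read counts. A component was considered if it had 2 to 9 contigs, and a contig counted if it had at least 200 reads over both pools. The ratio of male to female scaled counts (CPM, the reads of a contig scaled to the pool's total in the table) had to be at least 16 or at most 1/16 after 0.02 CPM was added to each pool. Among the 10071 contigs within the limits on size and reads, 329 (3.27%) were past this ratio towards the male pool and 336 (3.34%) towards the female pool. These counts and the 12 members hold for scaling by each pool's total. With 2 other scalings, TMM and the median of ratios, only 2 of the 6 male-higher members stayed past 16-fold. All 6 female-higher members did, which was fixed in advance. The ratios of the members are what chose them, so they are a description and no test of them is given.

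The male library was made from RNA of testis pooled with that of liver, spleen, kidney, brain and muscle, and the female library from RNA of ovary pooled with that of the same somatic organs, with 1 library per sex. The fish, also called pearlspot or green chromide, lives in brackish waters of southern India and Sri Lanka. The labels give no age, strain or treatment, nor the number of fish in a pool or the shares of the organs. The male library held 19788173 reads in the table and the female library 24649400. There is no replicate, so every difference is one between 2 libraries, and the intervals given are 95% exact (Clopper-Pearson) intervals that cover counting error only. In pooled organs, fewer cells of a type, less RNA per cell and a smaller share of an organ cannot be told apart. The table pairs no gene name and no sequence with a contig, so the labelled organs were not checked against marker genes and the products of the contigs are not named.

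Trinity assembles transcripts without a genome. It joins reads through short shared words, collects contigs that share such words in a component, and splits a component into units it treats as genes. The last field of a contig's name numbers this unit, so the assembler treated the contigs described here as separate genes. Contigs of a component can still be splice forms, alleles or related copies of a gene, or can be joined by a repeat or a shared stretch. Bony fish are known for keeping duplicate copies of many genes, and testis and ovary are known for using different copies and splice forms in many animals. Which of these relations holds for the contigs described here was not tested. How reads that fit several contigs were counted is not given in the sources used here, so the split of reads between contigs of a component is uncertain.

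Opposite bias within a small component was rare. The table held 69911 components, of which 10031 had 2 to 9 contigs, and 2673 of these had 2 or more contigs with at least 200 reads. Both directions occurred in 6 of the 2673 (0.224%), whereas 52 (1.95%) had 2 or more contigs that were male-higher only and 31 (1.16%) had 2 or more that were female-higher only. Of the 89 components with at least 2 contigs past 16-fold, the 6 made up 6.74%. The members held 0.0214% of male reads and 0.0684% of female reads, and all 34 contigs of the 6 components held 0.0542% of male reads and 0.110% of female reads.

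The 6 components had 3 to 8 contigs each. No component of exactly 2 contigs was among them, out of 560 with 2 contigs of 200 reads. Taking 3 of 560 as the bound for a count of 0 allows a share of up to 0.536%. This bound is not an exact interval. There was 1 among 515 components of 3 contigs, or 0.194%. Components of 4 or 5 contigs gave 2 of 715, or 0.280%, and those of 6 to 9 contigs gave 3 of 883, or 0.340%. Among components of 10 to 24 contigs, outside the size limit, 11 of 526 met the same rule, or 2.09%. A component with more contigs has more pairs that can differ, and no test of these shares was made. Up to 9 contigs every share lies under the 0.536% allowed for components of 2, so no trend is read from them.

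The components are numbered 1 to 6 by the reads of the weaker side, that is, by the smaller of the male reads of the male-higher contig and the female reads of the female-higher contig. This number was 635 in component 1 and 200 in component 6. The files pair no gene name with any contig, so IDs are printed only for the 4 members of components 1 and 2.

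Component 1 held the pair with the most reads on the weaker side, and its members changed places between the pools. Its male-higher contig was no longer past 16-fold with TMM or the median of ratios, at log2 ratios of 3.82 and 3.71. TRINITY_DN18702_c0_g3, the male-higher contig, has 2084 bases and a GC content of 45.0%, and it drew 635 male and 24 female reads. In FPKM, the authors' deposited value per length and library total, it stood at 14.8 in the male pool against 0.452 in the female pool. Its log2 ratio of male to female CPM was 5.04, with a counting interval of 4.46 to 5.70. TRINITY_DN18702_c0_g1, the female-higher contig, has 2830 bases and a GC content of 45.9%, and it drew 1 male and 718 female reads. Its FPKM was 0.0171 in the male pool against 9.96 in the female pool. The log2 ratio of TRINITY_DN18702_c0_g1 was -9.17, with an interval of -14.48 to -6.69, whose width follows from the single male read. So each of these contigs stood near 10 FPKM or above in 1 pool and under 0.5 FPKM in the other. The component's largest share of female reads, 47.0%, was held by neither but by a contig of 1731 bases. That contig had 428 male and 1011 female reads.

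Component 2 held 3 contigs, and its pair was nearly equal in length. TRINITY_DN17579_c8_g2, the male-higher contig, has 3123 bases and a GC content of 44.2%, and it drew 354 male and 18 female reads. Its FPKM was 5.49 in the male pool against 0.226 in the female pool, and its log2 ratio was 4.61, with an interval of 3.93 to 5.39 that reached below the 16-fold limit. TRINITY_DN17579_c8_g1, the female-higher contig, has 3126 bases and a GC content of 43.2%, and it drew 15 male and 1803 female reads. It stood at 0.232 FPKM in the male pool against 22.6 FPKM in the female pool, a log2 ratio of -6.59 with an interval of -7.43 to -5.87. The levels in the lower pool were thus alike for both contigs, and the female-higher one was the more abundant in its own pool. The remaining contig, with 2379 bases and a GC content of 53.8%, had 207 male and 259 female reads, and its interval for the log2 ratio, -0.28 to 0.26, held equality.

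Component 3 held the only member with no read in one pool. Its male-higher contig, 1937 bases long, had 1057 male and 66 female reads, or 26.4 FPKM in the male pool against 1.34 FPKM in the female pool. The log2 ratio was 4.32, with an interval of 3.96 to 4.70. Its female-higher contig, only 266 bases long, had 0 male and 272 female reads, and in the female pool it reached 40.1 FPKM. Against a floor of 3 male reads its female level was at least 72.8-fold higher. Another contig of this component, 654 bases long, also had no male read and had 149 female reads, which left it under the minimum of 200. The remaining contig, 2160 bases long, had 56 male and 125 female reads.

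Component 4 was the only one in which both members were past 64-fold by column totals. The log2 shifts of TMM and the median of ratios, -1.20 and -1.32, take its male-higher member below 64-fold. That contig, the longest member at 5421 bases, had 1250 male and 11 female reads. It stood at 11.2 FPKM in the male pool against 0.0796 FPKM in the female pool. The log2 ratio of 7.15, with an interval of 6.30 to 8.15, was the largest of the male-higher members, although the interval overlapped that of component 5. The female-higher contig, 1038 bases long, had 1 male and 210 female reads, or 0.0466 FPKM in the male pool against 7.94 FPKM in the female pool. Its log2 ratio was -7.40, with an interval of -12.71 to -4.90. Another contig of 5859 bases, with 606 male and 321 female reads, was the main other source of reads in this component.

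Component 5 held the most abundant female-higher member by reads. That contig, 3053 bases long, had 315 male and 6961 female reads, or 4.996 FPKM in the male pool against 89.5 FPKM in the female pool. At a log2 ratio of -4.15, with an interval of -4.32 to -3.99, it lay just past the limit. The male-higher contig, 482 bases long, had 203 male and 2 female reads, or 20.4 FPKM in the male pool against 0.163 FPKM in the female pool. Its log2 ratio was 6.98, with an interval of 5.11 to 10.04. A contig of 223 bases had 186 male and 4 female reads, or 190 in all, and so missed the minimum of 200. A contig of 3707 bases and 50.7% GC went the way of the long member with 440 male and 3357 female reads.

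Component 6 held the most reads of the 6, and its male-higher member had the fewest male reads among the male-higher ones. The male-higher contig, with 2982 bases and a GC content of 46.4%, had 200 male and 14 female reads, or 3.25 FPKM in the male pool against 0.184 FPKM in the female pool. It lay near the limit, with a log2 ratio of 4.15 and an interval of 3.37 to 5.05. The female-higher contig, with 2435 bases and a GC content of 41.5%, had 195 male and 6755 female reads, or 3.88 FPKM in the male pool against 109 FPKM in the female pool. Its log2 ratio was -4.80, with an interval of -5.01 to -4.59. The contig that led the male pool here was neither of them but one of 3146 bases with 2448 male and 562 female reads.

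**Figure D1:**
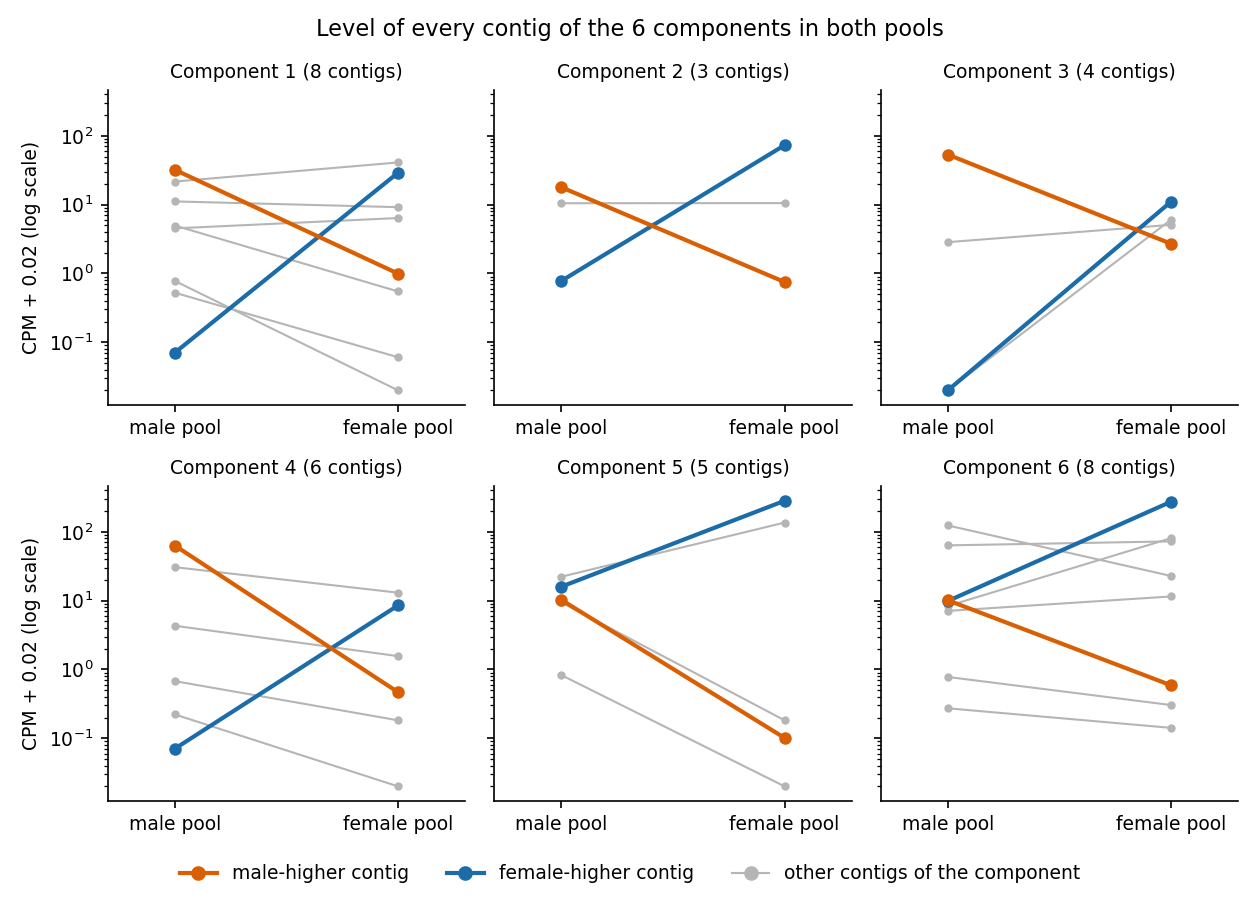
Level of each of the 34 contigs in the male pool (left of each panel) and the female pool (right), as CPM plus 0.02 on a log scale, with 1 panel per component and 1 line per contig. The lines of the male-higher and female-higher members cross in components 1 to 4, while in component 6 both members start together in the male pool, at 200 and 195 male reads.

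For 8 of the 12 members the whole counting interval was past 16-fold, 3 among the male-higher and 5 among the female-higher ones. Both members of a pair were so only in components 1 and 4. The members just inside the limits were the male-higher contig of component 6 by ratio, at 4.11 on the log2 scale with 0.02 CPM added, and that of component 5 by reads, at 205. Of the pairs that missed only by ratio, the nearest had an opposite contig with 225 male and 21 female reads, at 3.71, or 1 with 21 male and 382 female reads, at -3.84. Of those that missed only by reads, the nearest opposite contig had 170 male and 5 female reads, or 175 in all.

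At the median the male-higher members were less abundant in their own pool than the female-higher members were in theirs, but the ranges overlapped. In the male pool the male-higher members ran from 3.25 to 26.4 FPKM, with a median of 13.0. In the female pool the female-higher members ran from 7.94 to 109 FPKM, with a median of 31.4. In components 1 and 4 the male-higher contig had the higher FPKM of the pair, each in its own pool, and in the other 4 the female-higher contig did. In component 3 this order rests on length, since the female-higher contig has only 266 bases. It had 11.0 CPM in the female pool, against 53.4 CPM for its partner in the male pool. The 323 male-higher contigs from components with 1 direction only had a median of 12.1 FPKM in the male pool. The 330 female-higher contigs from such components had a median of 44.1 FPKM in the female pool. The members lay within the full range of these other contigs in their own pool. That range was 2.38 to 887 FPKM for male-higher and 3.14 to 17711 FPKM for female-higher ones. The quartiles were 7.06 and 26.7 FPKM for male-higher and 18.2 and 121 FPKM for female-higher ones. The male-higher members of components 2 and 6 and the female-higher members of components 1 and 4 lay below the lower quartile. No member lay above the upper one.

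Which contig of a pair led within a pool does not depend on how the pools are scaled, so the pairs were also compared per length inside each pool. In the male pool the male-higher contig of component 1 stood 862 times above its partner, with an interval of 154 to 34112 that reflects the single read of the partner. It stood 239 times above its partner in component 4 (42.9 to 9461), 23.6 times in component 2 (14.1 to 42.7) and 4.08 times in component 5 (3.40 to 4.88). For component 3 the partner had no male read, and the male-higher contig was at least 48.4 times above a floor of 3 reads. In component 6 the ratio was 0.838, with an interval of 0.684 to 1.03 that held equality. Per length the male pool thus held more of the male-higher contig in components 1 to 5. In component 5 this order rests on length, since by reads the male-higher contig of 482 bases had 203 male reads and its partner of 3053 bases had 315.

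In the female pool the female-higher contig stood above its male-higher partner in all 6 components. It stood 22.03 times above its partner per length in component 1 (14.7 to 34.6), 30.0 times in component 3 (22.9 to 39.9) and 99.7 times in component 4 (54.6 to 203). The ratio was 100.1 in component 2 (63.1 to 169), 549 in component 5 (152 to 4538) and 591 in component 6 (352 to 1081). In components 3 and 4, where the female-higher contig is the much shorter one, part of the ratio rests on length. It had 272 female reads against 66 of its partner in component 3, and 210 against 11 in component 4. Components 5 and 6, with the largest ratios in the female pool, had the smallest ratios in the male pool. The log2 of the male-pool ratio over the female-pool ratio, which no scaling between the pools can move, was 8.95 in component 6 (conditional exact interval 8.13 to 9.87) and 14.54 in component 4 (11.71 to 19.85). For component 3, with a count of 0, it was at least 10.50 against the floor of 3 reads. The rule itself sets a least value near 8.

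The same counts can be given as the share of a component's reads that each member took. The rule largely fixes in which pool a member has the larger share, so only the size of the shares is described. In component 2 the male-higher contig held 61.5% of the male reads (57.3 to 65.5) and 0.865% of the female reads (0.514 to 1.36). Its partner held 2.60% of the male reads (1.46 to 4.26) and 86.7% of the female reads (85.1 to 88.1). In component 3 the male-higher contig held 94.97% of the male reads (93.5 to 96.2) and 10.8% of the female reads (8.44 to 13.5). At the other end, the male-higher contig of component 6 held 4.52% of the male reads (3.93 to 5.17) and 0.123% of the female reads (0.0671 to 0.206). Both members together held between 8.93% (component 6) and 94.97% (component 3) of a component's male reads, and between 34.5% (component 1) and 87.5% (component 2) of its female reads.

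**Figure D2:**
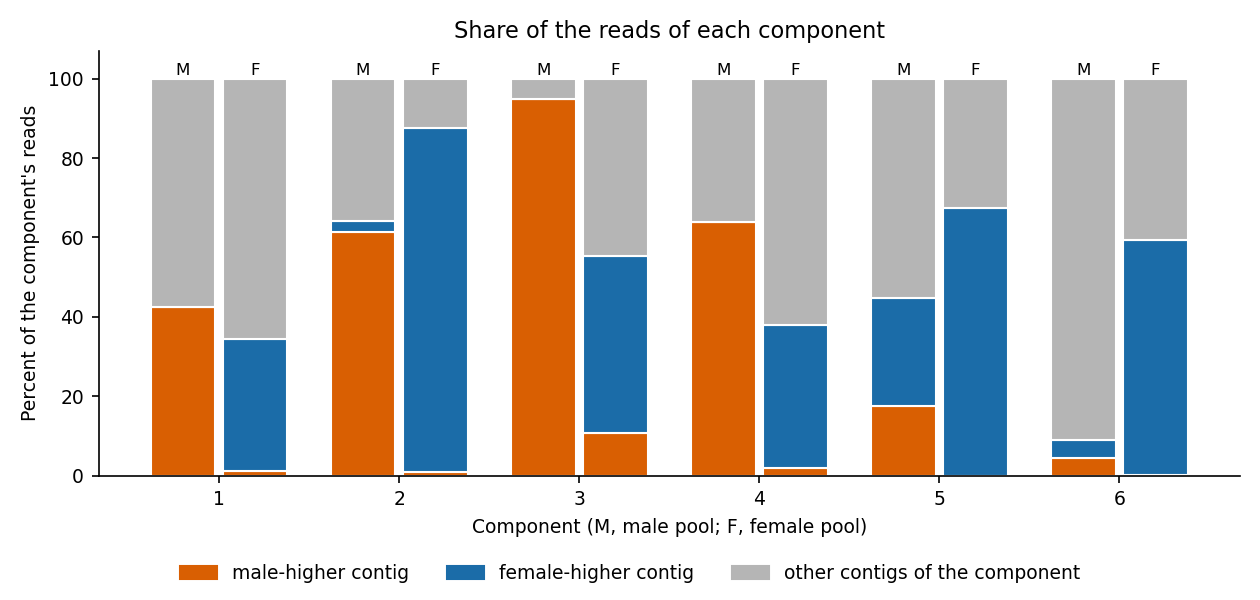
Share of the reads of each component, in percent, held by the male-higher contig, the female-higher contig and the other contigs, in the male pool (M, left bar) and the female pool (F, right bar). In component 2 the male-higher contig filled 61.5% of the male bar and its partner 86.7% of the female bar, and in component 6 the members filled 8.93% of the male bar.

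Summing all contigs of a component brought the pools closer. The log2 ratio of summed male to female CPM was -0.21 in component 1 (-0.30 to -0.11), where the sums were 1496 male and 2150 female reads. It was -1.05 in component 6 (-1.10 to -0.999) and -1.54 in component 2 (-1.67 to -1.40). Component 5 had the ratio farthest from equality, -2.84 (-2.93 to -2.75), with 1160 male and 10324 female reads. The 2 components with a higher sum in the male pool were component 3, at 1.18 (1.04 to 1.32), and component 4, at 2.06 (1.93 to 2.199). In all 6 the interval excluded equality, 4 sums were under 4-fold apart and 1 was under 2-fold apart. The ratio of a sum lies between those of its most extreme contigs, so part of this is fixed by the rule. Among the 83 components with 2 or more contigs past 16-fold in 1 direction only, 65 sums were at least 4-fold apart and 45 at least 16-fold. Those 83 were chosen for contigs that lean the same way, so their larger ratios are also partly fixed. No conclusion is drawn from this contrast.

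The direction of the sum turned with the weight given to length in component 3. By reads it was higher in the male pool, with 1113 male and 612 female reads. By summed FPKM it was lower in the male pool, with 27.7 FPKM in the male pool against 52.7 FPKM in the female pool, a log2 ratio of -0.93. The short female-higher contig held 44.4% of the female reads and 76.2% of the summed female FPKM of this component. In component 5, where the male-higher contig is the short one, the log2 ratio of sums was -2.84 by reads and -0.75 by FPKM. In component 4 it was 2.06 by reads and 0.87 by FPKM. Components 1, 2 and 6, whose members differ by at most 1.36 times in length, moved by at most 0.086.

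**Figure D3:**
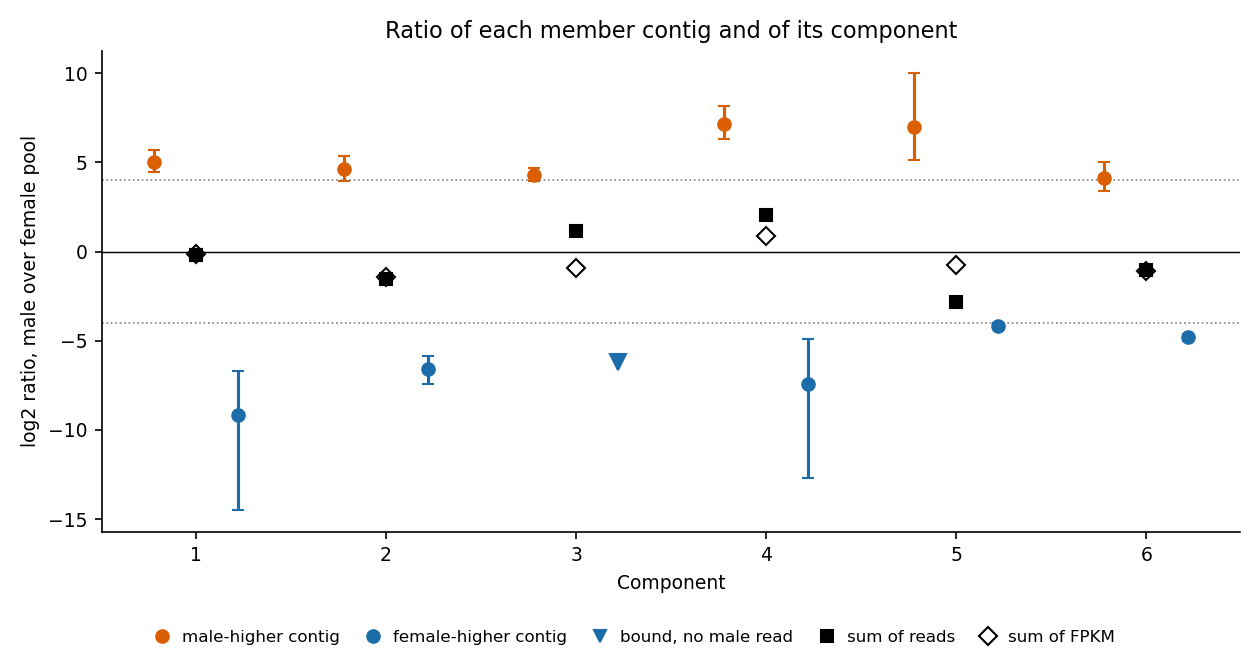
Log2 ratio of male to female pool for the members (circles, from CPM, with 95% counting intervals), for the summed reads of the component (squares) and for the summed FPKM (diamonds), with dotted lines at 16-fold. The triangle of component 3 marks the bound against a floor of 3 male reads, -6.19, for the contig with no male read, and in component 3 the square lies at 1.18 and the diamond at -0.93.

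The scaling between the pools moved every ratio in the same direction. Column totals set the male library at 0.803 times the size of the female one. TMM (edgeR) sets it at 1.85 times and the median of ratios at 2 times, which lower log2 ratios of male to female by 1.20 and 1.32. All 12 members kept their direction under both, which was fixed in advance, since these shifts are smaller than the log2 limit of 4. The shifts go towards the female pool, so that all 6 female-higher members stayed past 16-fold was fixed as well. Only 2 of the 6 male-higher members stayed past 16-fold under both scalings, those of components 4 and 5. By the ratio alone, the sums were then higher in the male pool in 1 component, component 4, and higher in the female pool in 5. By column totals the summed ratio of component 3 was 1.180, with an interval of 1.036 to 1.324. The log2 shifts of -1.203 (TMM) and -1.317 (median of ratios) take this ratio below equality, but not the upper end of its interval. Under both scalings the interval of component 3 thus held equality, and its direction there is within counting error.

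The length and GC content of the contigs did not enter the rule, although the minimum of 200 reads favours longer contigs. The male-higher contig was the longer one in components 3, 4 and 6 and the shorter one in components 1, 2 and 5. In components 3, 4 and 5 the longer contig was 7.28, 5.22 and 6.33 times as long as its partner, and in the other 3 it was 1.00 to 1.36 times as long. The median length ratio of the 6 pairs was 3.29, against 1.97 over all 9638 pairs of contigs of at least 200 reads within components of 2 to 9 contigs. With a minimum length of 500 bases, which leaves 4 pairs, it was 1.29, below 1.97. The 1.97 was taken without that minimum, so these values differ in their limits. None of the 6 pairs had a length ratio between 1.36 and 5.22, but 6 pairs are too few to tell separate kinds by length.

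The members of a pair were closest in GC content in components 1, 2 and 3 and farthest apart in component 6. The difference, male-higher minus female-higher contig, was -0.24 percentage points in component 3, -0.94 in component 1 and 1.002 in component 2. It was -2.45 in component 5, -3.13 in component 4 and 4.89 in component 6. Its sign was negative in 4 pairs and positive in 2, so neither side had the higher GC content throughout. The median absolute difference was 1.73 points, against 4.42 over all 9638 pairs, 2.83 over 89 pairs of male-higher contigs and 5.86 over 43 pairs of female-higher contigs. Component 6 lay above the median of all pairs, and components 4 and 6 above that of the male-higher pairs. All members lay between 41.1% and 46.4% GC. The 10 other contigs of the 6 components with at least 200 reads ran from 38.6% to 53.8%. The 12 under 200 reads, which could not be members, ran from 33.9% to 45.6%. With 6 pairs, and with contigs of a component sharing sequence, these are descriptions, and no difference from the other pairs was tested.

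The share of each base was compared within a pair on the strand as listed and with 1 contig read as its reverse complement, since the strand of an assembled contig is not known. The distance is the percentage of a contig's bases that would have to change for the compositions to match. As listed it was 1.42 in component 1, 1.65 in component 3, 3.13 in component 4, 4.53 in component 2, 5.23 in component 6 and 5.91 in component 5. As reverse complement it was smaller only in component 2, at 2.68. The median as listed was 3.83 for the 6 pairs and 6.12 over all 9638 pairs, and as reverse complement 4.70 for the 6 pairs and 6.48 over all pairs.

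**Figure D4:**
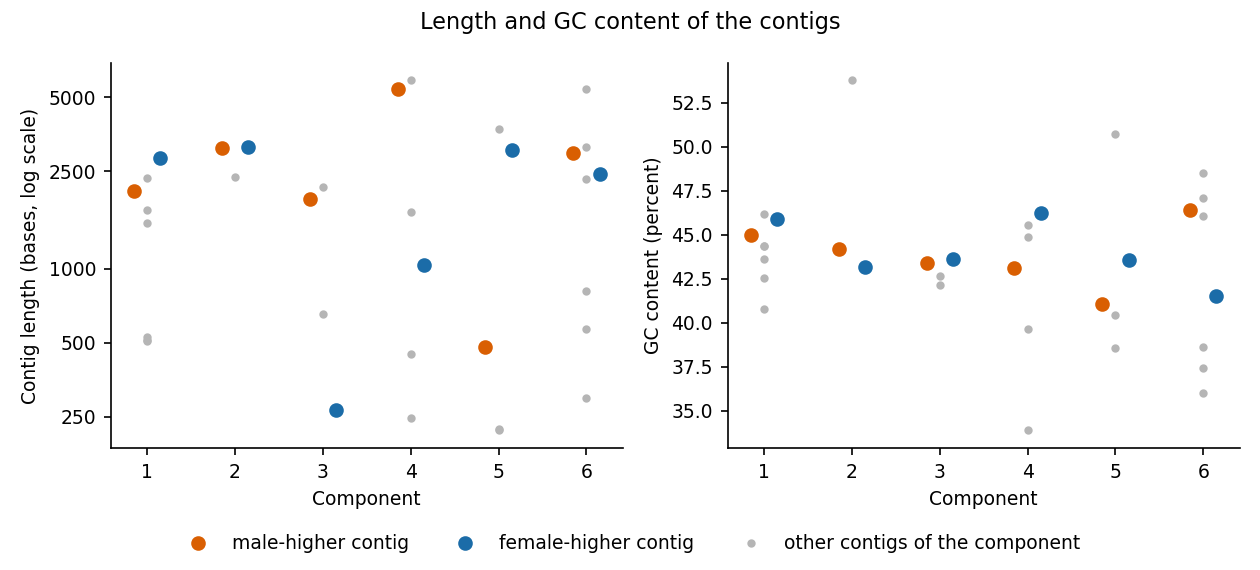
Contig length in bases on a log scale (left) and GC content in percent (right) for the male-higher member, the female-higher member and the other contigs of each component. Members of components 1, 2 and 6 are of like length, those of components 3, 4 and 5 differ by at least 5.22 times, and all members lie between 41.1% and 46.4% GC.

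The 6 components held 22 other contigs. Of these, 10 had at least 200 reads, and since any of them past 16-fold would be a member, the rule keeps them between the limits. Their log2 ratios ran from -3.27 to 2.44 (0.02 CPM added), and 6 of the 10, all in components 1, 2 and 6, were under 2-fold apart. By column totals there were 3 higher in the male pool and 7 higher in the female pool. The 3 included a contig of component 1 at 0.28 (0.0037 to 0.55) and a contig of component 4 at 1.23. The log2 shifts of TMM and the median of ratios, -1.20 and -1.32, turn the first and bring the second close to equality. The 7 included the contig of component 2 whose interval, -0.28 to 0.26, held equality. The lowest and the highest ratio were both in component 6, those of a contig of 5396 bases with 165 male and 1992 female reads and the one of 3146 bases described above. Of the 12 contigs under 200 reads, 4 were also past 16-fold, and they lay in components 1, 3 and 5. Among them were a contig of component 1 with 15 male reads and one of component 5 with 16, both with no female read. Their counting intervals reached down to log2 ratios of 2.16 and 2.26, below the limit. The median length was 2359 bases for the 10 contigs and 520 bases for the 12, against 2633 bases for the members. At the same level a longer contig draws more reads, so the short median of the 12 follows partly from the minimum of 200 reads.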

How the data were processed

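RNA of pooled organs was sequenced in 1 male and 1 female library. Trizol extraction and Illumina TruSeq RNA preparation are recorded, per the labels' protocols. The submitters' processing notes name cutadapt 1.8, Bowtie2 2.2.6 and DESeq 1.16.0. Their roles, the read counter and the version of the assembler are not given in the sources used. The authors deposited raw read counts and FPKM per contig, with length, base numbers and GC percent per the file headers. The FPKM follow from the counts and lengths with totals of 20653893 (male) and 25478638 (female) reads, to within a relative 5.52e-08.

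Counts were scaled to CPM by column totals. Components, members and sums were computed in Python 3.11.15 with pandas 2.3.3 and scipy 1.17.1, and TMM with edgeR 4.0.16. No differential test was possible with 1 library per sex, so no p-value is given. The members were chosen with earlier results of these data known. Named are the most abundant contig of each direction in the 2 components with the most reads on the weaker side. A floor of 3 reads equals 0.152 male and 0.122 female CPM. Alternatives were other scalings, folds, read minimums, component sizes, a pseudocount of 0.2 CPM and a length minimum.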

Additional observations from a re-analysis of the deposited data

How the results depend on the processing

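The 6 components became 3 with TMM and 3 with the median of ratios, of which 2 (components 4 and 5) were among the 6 in each case. A fold of 8 gave 30 components and a fold of 64 gave 1 (component 4). A minimum of 50 reads gave 19, 1 read gave 81 and 1000 reads gave 0. With all components of 2 or more contigs there were 17, and with exactly 2 contigs 0. A counting interval wholly beyond 16-fold, chosen after seeing the data, left 2 (components 1 and 4). A pseudocount of 0.2 CPM gave 5, without component 6, and a minimum length of 500 bases gave 4, without components 3 and 5. The median log2 ratio of the sums was -0.63 by column totals, -1.83 with TMM, -1.94 with the median of ratios, -0.84 by summed FPKM and -0.95 over the members alone. With a minimum length of 500 bases the median within a pair became 2.07 GC points and a length ratio of 1.29. Taking the most abundant contig of each direction changed neither, since each component held 1 of each. With 1000 reads no component was left, so sums and pairs have no value there. No scaling or pseudocount turned the direction of the 4 named contigs, but their ratios were what chose them. TMM put TRINITY_DN18702_c0_g3 at 3.82 and TRINITY_DN17579_c8_g2 at 3.39, both under 16-fold. Depth limits the low side: 4 members had fewer than 3 reads in their lower pool. No paired analysis was possible because each pool has 1 library.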
